A study of Homo sapiens with 4 samples.

Results

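The 10 genes described here belong to fibroblast growth factor (FGF) signalling: the ligands FGF2, FGF4 and FGF8, the receptors FGFR1, FGFR2, FGFR3 and FGFR4, and the feedback inhibitors DUSP6, SPRY2 and SPRY4. They were taken by gene symbol from the 62696 genes of each count table, and all 10 symbols were found in all 4 tables. FGF ligands bind receptor tyrosine kinases together with heparan sulfate on the cell surface, and the receptors pass the signal through RAS and RAF to the kinase ERK. ERK activity raises transcription of its own brakes: Sprouty proteins act upstream of ERK, and DUSP6 is a phosphatase that removes the activating phosphates from ERK. In human pluripotent and embryonal carcinoma cells FGF2 is known for its part in self-renewal, and FGF4 is a known target of the pluripotency factors OCT4 and SOX2.

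The libraries came from NT2 (NTERA-2), an established human embryonal carcinoma cell line grown in medium with serum. Total RNA depleted of ribosomal RNA was sequenced from 1 library of cells with an empty vector, called the control below, whose genotype is given as wild type, and from 3 libraries labelled as HYDIN2 knockdown, replicates 1 to 3. HYDIN2 is a transcribed partial copy of the cilia gene HYDIN, and the comparison asks what its knockdown does to the transcriptome of NT2 cells. The labels do not say how the knockdown was made or whether the replicates were separate cultures, so p-values measure only the spread between these libraries, which may be technical.

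The control thus stands for a single library throughout. Library totals ran from 25181737 to 62904698 counts. HYDIN2 had 12 counts in the control and 150, 112 and 11 in labelled replicates 1, 2 and 3, so the targeted gene did not support the labels, and each direction below is that of libraries labelled knockdown. The count columns are headed with the names of a LacZ control and of GKAP_KIF27 sets, not of HYDIN2. Between labelled replicates 1 and 2, 0.177% of genes were 2-fold or more apart, and between replicate 3 and these 22.3% and 23.7% were. Member levels are therefore given library by library, and the calls and some of the means also without replicate 3. Of 14 embryonal carcinoma markers, 13 were tested, and the 14 summed to between 8212 and 10074 CPM in the 4 libraries. LIN28A alone made 2844 of the 9069 CPM in the control, so the sum hides most single markers. In all 3 knockdown-labelled libraries 6 of the 13 lay below the control and 2 above, against 34.2% and 30.1% of all tested genes. The 6 blood markers summed to at most 0.972 CPM.

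A gene was tested when the mean of its control CPM and its mean labelled knockdown CPM was at least 1, which left 15880 genes and 9 of the 10 members. FGF8 did not reach that level. With 1 control there is no replicate check on the control side. A gene therefore passed the 2-fold rule, as a description, when each of the 3 knockdown-labelled libraries was 2-fold or more above the control, or each 2-fold or more below. No member did so in either direction, against 3.65% of all tested genes higher and 2.72% lower. Of the 9 tested members, 6 lay above the control in all 3 libraries (FGF2, FGFR1, FGFR2, FGFR3, DUSP6 and SPRY4) and 2 lay below it (FGFR4 and SPRY2). Over all tested genes those shares were 30.1% and 34.2%. FGF4 was higher in replicates 1 and 2 and lower in replicate 3. At 1.5-fold in each library FGF2 and SPRY4 passed as higher, a rule that 10.0% of tested genes passed, and no member passed as lower, against 9.61%. The median over the 9 tested members of the mean log2 difference was 0.40, beside -0.02 over all tested genes. With edgeR's quasi-likelihood test 0 of 26029 genes were called (0% of those tested), and the adjusted p of the 10 members ran from 0.402 to 0.824. Unadjusted p-values under 0.05 were found for 3023 genes, among them FGF2 and SPRY4. The Wald test of DESeq2 called 271 of the 41692 genes that received a p-value, and none of the 271 was a member. FGF8 received no adjusted p in that test and so could not be called. Any other gene without an adjusted p could not be called either, so 41692 is not the number open to a call. Voom with limma called 0 of 26029 genes. Without replicate 3 edgeR called 44.7% of 25016 genes and 8 of the 9 members it tested, all but DUSP6. That fit takes its spread from replicates 1 and 2 alone. In replicates 1 and 2, FGF2 and FGF4 were each 2-fold or more above the control, as were 9.54% of tested genes, and no member was as far below, against 5.50%. After correction for smooth trends in transcript length and in GC content, the 2-fold rule was passed by 2.61% of genes upward and 1.73% downward and by no member. FGF2 and SPRY4 then no longer passed at 1.5-fold in each library. The corrected log2 differences in replicates 1, 2 and 3 were 1.20, 1.16 and 0.23 for FGF2. For SPRY4 they were 0.541, 0.580 and 0.743, narrowly short in replicates 1 and 2.

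**Figure D1:**
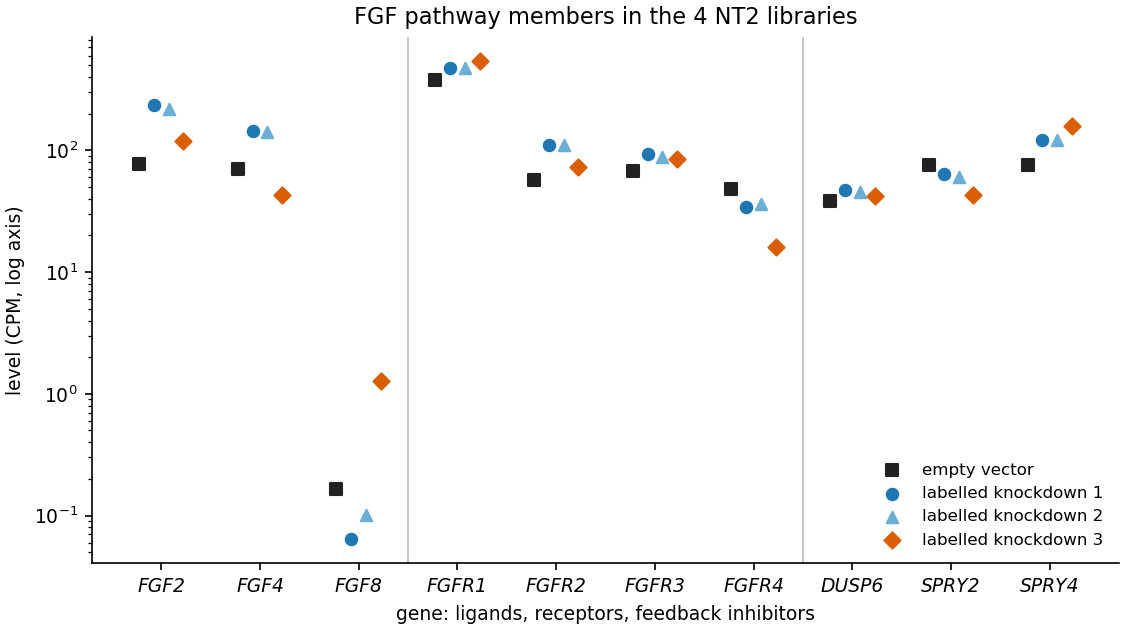
Level of each member in the 4 libraries, in CPM on a log axis; each point is 1 library. FGFR1 was the highest in every library on this scale, which is not corrected for gene length, and FGF8 stayed at or below 1.28 CPM.

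The promoter stretches of FGF2, FGFR2, FGFR4 and SPRY4 are shown because these members had the largest mean differences among those with all 3 knockdown-labelled libraries on one side of the control. They are RefSeq sequence on GRCh38.p14, 5′ to 3′ along the gene's strand, taken from the 250 bases before the most upstream RefSeq start and cut back to bases outside the exons of GENCODE 29. Capitals mark matches on either strand to the letters GGGCGG (SP1 motif) or GCGNGGGCG (EGR motif), which can overlap each other. FGF2 is from chr4:122826581-122826707 on the plus strand, FGFR2 from chr10:121598459-121598694 on the minus strand, FGFR4 from chr5:177086665-177086885 on the plus strand and SPRY4 from chr5:142324418-142324497 on the minus strand. The SPRY4 stretch precedes a RefSeq start but lies inside the longer GENCODE gene, downstream of that gene's start.
FGF2: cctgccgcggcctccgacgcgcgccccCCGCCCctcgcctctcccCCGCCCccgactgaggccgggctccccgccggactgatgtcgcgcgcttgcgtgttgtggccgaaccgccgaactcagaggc
FGFR2: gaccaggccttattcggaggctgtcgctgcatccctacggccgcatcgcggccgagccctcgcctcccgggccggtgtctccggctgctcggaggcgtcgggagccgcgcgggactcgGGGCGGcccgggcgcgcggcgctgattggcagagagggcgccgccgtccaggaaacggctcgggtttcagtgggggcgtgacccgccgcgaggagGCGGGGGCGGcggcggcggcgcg
FGFR4: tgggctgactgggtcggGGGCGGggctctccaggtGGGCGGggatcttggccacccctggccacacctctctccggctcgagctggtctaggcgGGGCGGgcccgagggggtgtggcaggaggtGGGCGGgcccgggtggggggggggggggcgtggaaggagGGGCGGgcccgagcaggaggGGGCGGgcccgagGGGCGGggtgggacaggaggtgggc
SPRY4: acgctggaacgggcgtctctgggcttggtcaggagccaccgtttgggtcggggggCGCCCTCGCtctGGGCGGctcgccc
The printed FGF2 stretch held 2 SP1 matches and that of FGFR4 held 7. The full window of FGFR3, a member higher in all 3 libraries, held 8. The FGFR2 stretch had 2 SP1 matches and 1 EGR match, and the SPRY4 stretch had 1 of each. Of 35116 windows of 250 bases in the same table, 42.6% held GGGCGG and 8.41% held GCGNGGGCG; the printed stretches are shorter, at 80 to 236 bases, so these shares do not apply to them directly. RefSeq windows were found for 7 of the 10 members, 14 windows in all. The letters GGAAGT, the core bound by the ETS factors that ERK acts on, stood in the windows of 1 start each of FGFR2, FGFR4 and SPRY2 and in 19.5% of all windows. None of the 14 windows held the AP-1 motif TGANTCA (6.57% of all windows), the octamer ATGCAAAT (1.63%) or the TCF/LEF motif CTTTGAT (2.26%). A match is a description of letters and was not tested as a binding site.

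Between the tested member ligands FGF2 and FGF4, the mean difference was wider for FGF2. FGF2 (ENSG00000138685.17; chromosome 4, 122826708 to 122898236, plus strand, GRCh38) is the ligand commonly added to human pluripotent cell cultures. Its level was 76.8 CPM in the control and 235, 220 and 119 CPM in labelled replicates 1, 2 and 3, on average 192 ± 63.2 CPM (SD, n = 3). All 3 knockdown-labelled libraries lay above the control, with replicate 3 nearest to it. The ratios were 3.06 (95% interval 2.86 to 3.29), 2.87 (2.68 to 3.08) and 1.55 (1.43 to 1.68). These are exact binomial intervals on counts divided by 2, because most counts were even; they cover counting error only and compare libraries, not conditions. The mean log2 difference was 1.26 ± 0.54 (SD, n = 3), and 1.57 over replicates 1 and 2 alone. After correction for the length and GC trends it was 0.87, with 0.23 in replicate 3. FGF2 shares 804 exonic bases with NUDT6, a gene on the opposite strand, so FGF2 counts are uncertain if strand was not used in counting. NUDT6 had 5.29 CPM in the control and 4.80, 4.92 and 6.63 CPM in the replicates, far below FGF2.

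FGF4 (ENSG00000075388.4; chromosome 11, 69771016 to 69775403, minus strand) is a ligand of the undifferentiated embryo and of embryonal carcinoma cells. It had 70.9 CPM in the control and 144, 142 and 43.2 CPM in labelled replicates 1, 2 and 3. Replicates 1 and 2 lay above the control and replicate 3 below it, so the groups overlapped. The ratios of 2.03 (1.89 to 2.19), 2.01 (1.87 to 2.16) and 0.610 (0.551 to 0.676) each had an interval on one side of 1. The mean log2 difference, 0.44 ± 1.00 (SD, n = 3), was smaller than its spread. Replicate 3 lay below the mean of replicates 1 and 2 by a log2 difference of -1.73. FGF4 and FGFR4 were the members at least 2-fold lower in replicate 3 than in both other replicates, a pattern of 13.1% of tested genes. No tested member was at least 2-fold higher there (6.20% of tested genes). The same pattern was met by 3 of the 13 tested embryonal carcinoma markers, 6 of 9 neural markers and 3 of 9 mesenchymal markers. The 3 embryonal carcinoma markers were NANOG, PRDM14 and TDGF1. NANOG, a core pluripotency factor, had log2 differences from the control of 0.71, 0.70 and -0.63 in replicates 1 to 3. PRDM14, a germline and pluripotency regulator, had 0.56, 0.53 and -1.20. TDGF1, a coreceptor for NODAL, was below the control in all 3 at -0.56, -0.34 and -1.61. PODXL, a surface sialomucin of the same marker list, was above it in all 3 at 0.48, 0.42 and 1.07, with replicate 3 the highest. Whether these levels bear on FGF4 was not tested. In RNA from whole cultures, fewer cells of a type and less RNA per cell cannot be told apart.

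FGF8 (ENSG00000107831.14; chromosome 10, 101770130 to 101780369, minus strand), a ligand of the primitive streak and of brain patterning centres, was near the detection limit. It had 4 counts in the control and 4, 6 and 40 counts in labelled replicates 1, 2 and 3, which corresponds to 0.167, 0.0642, 0.101 and 1.28 CPM. Only replicate 3 stood apart. Its ratio to the control was 7.68, with an interval from 1.87 to 67.8, while the intervals of replicates 1 and 2 included 1. The mean log2 difference of 0.38 became -0.80 when replicate 3 was left out. All 4 tested mesoderm markers were at least 2-fold higher in replicate 3 than in both other replicates, among them EOMES with 10, 72, 50 and 234 counts in the same order of libraries. The summed level of the 6 mesoderm markers was 16.9 CPM in the control and 39.6, 36.4 and 91.5 CPM in the replicates, and most of it was HAND1. Without HAND1 the other 5 summed to 8.71 CPM in the control and 5.94, 5.01 and 20.4 CPM, so replicates 1 and 2 were below the control and replicate 3 above it. TBX6 was below the control in all 3 replicates, with log2 differences of -2.18, -1.84 and -0.50. TBXT, which defines the primitive streak, had 6 counts in the control, 0 in replicates 1 and 2, and 36 in replicate 3. Their part in the FGF8 count was not tested.

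**Figure D2:**
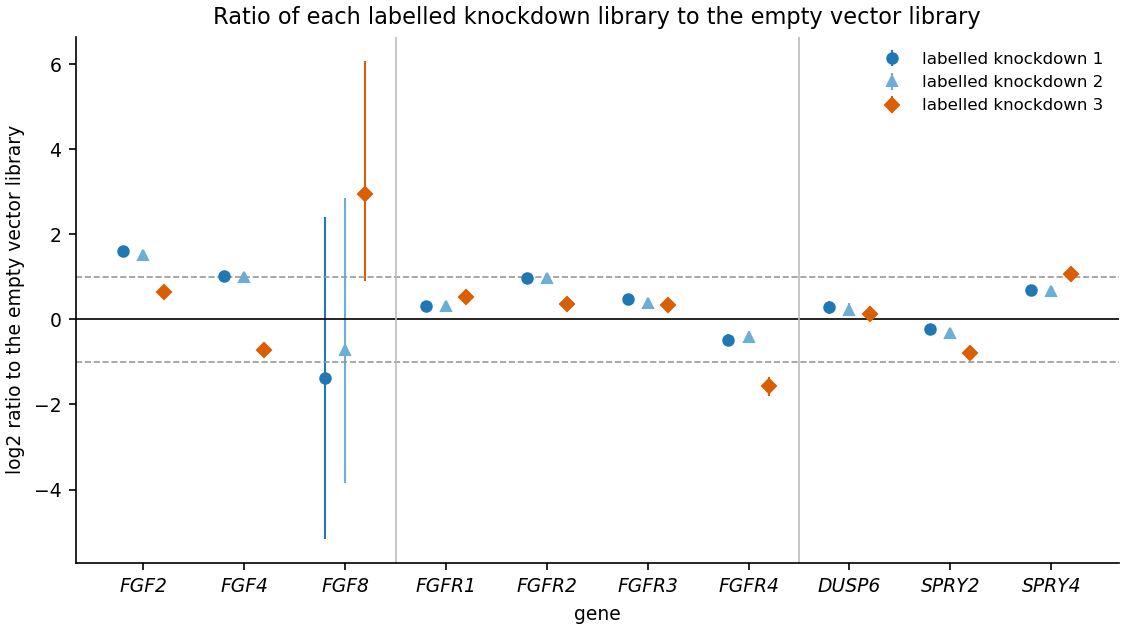
Ratio of each knockdown-labelled library to the control on a log2 scale; bars are 95% counting intervals and dashed lines mark 2-fold. Replicate 3 lay on the opposite side of 0 from replicates 1 and 2 for FGF4 and FGF8, and nearest to 0 for FGF2, FGFR2, FGFR3 and DUSP6.

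The receptors split, with FGFR1, FGFR2 and FGFR3 higher and FGFR4 lower in all 3 knockdown-labelled libraries. FGFR1 (ENSG00000077782.23; chromosome 8, 38400215 to 38468834, minus strand), a main receptor for FGF2 in pluripotent cells, had 381 CPM in the control. Its levels in labelled replicates 1, 2 and 3 were 477, 472 and 545 CPM, a narrow range above the control. The ratios were 1.25 (1.21 to 1.29), 1.24 (1.20 to 1.28) and 1.43 (1.38 to 1.48). A mean log2 difference of 0.38 ± 0.12 (SD, n = 3) was measured before correction for these trends and 0.09 after it. FGFR1 shares 138 exonic bases with LETM2 on the other strand, which had at most 8.45 CPM in any library, and 156 with the antisense gene AC087623.1, which had 2 to 6 counts.

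FGFR2 (ENSG00000066468.24; chromosome 10, 121478334 to 121598458, minus strand) encodes epithelial and mesenchymal splice forms that gene counts do not separate. Its level was 56.6 CPM in the control and 111, 111 and 72.5 CPM in the replicates, with replicate 3 again closest to the control. The ratios of 1.95 (1.80 to 2.12), 1.97 (1.81 to 2.14) and 1.28 (1.16 to 1.41) gave a mean log2 difference of 0.77 ± 0.35 (SD, n = 3). FGFR3 (ENSG00000068078.20; chromosome 4, 1793293 to 1808872, plus strand), known for gain-of-function changes in skeletal dysplasia, had 67.8 CPM in the control against 94.2, 88.6 and 85.1 CPM. The 3 knockdown-labelled libraries were close together and all above the control, with a mean log2 difference of 0.40 ± 0.07 (SD, n = 3).

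FGFR4 (ENSG00000160867.15; chromosome 5, 177086886 to 177098144, plus strand), the receptor that FGF19 uses with the coreceptor KLB, went the other way. It had 48.3 CPM in the control and 34.4, 36.3 and 16.2 CPM in labelled replicates 1, 2 and 3. No knockdown-labelled library reached the control level, and replicate 3 was the lowest. The ratios were 0.713 (0.644 to 0.790), 0.752 (0.679 to 0.833) and 0.335 (0.288 to 0.390), and the mean log2 difference was -0.82 ± 0.65 (SD, n = 3). Replicates 1 and 2 alone gave -0.45. After trend removal the mean over the 3 was -0.63, with -0.27, -0.17 and -1.45 in replicates 1, 2 and 3. FGF19 itself had 54.6 CPM in the control and 43.1, 46.9 and 18.4 CPM in the replicates, the same order of the replicates as FGFR4. KLB was present at 1.25, 0.658, 0.871 and 1.60 CPM.

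Shares within a library need no scaling between libraries. FGFR1 took 68.8% of the counts of the 4 receptors in the control and 66.6%, 66.7% and 75.8% in labelled replicates 1, 2 and 3. The FGFR4 share was 8.71% in the control (95% Clopper-Pearson interval 8.05% to 9.42%), against 4.80% (4.53% to 5.09%), 5.12% (4.83% to 5.43%) and 2.25% (1.99% to 2.54%). FGFR4 thus held a smaller part of receptor counts in each knockdown-labelled library by more than counting error. The FGFR2 share was 10.2% and 10.1% in the control and replicate 3, and 15.4% and 15.7% in replicates 1 and 2. Shares of counts are not corrected for length, nor for length and GC trends that differ between libraries.

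**Figure D3:**
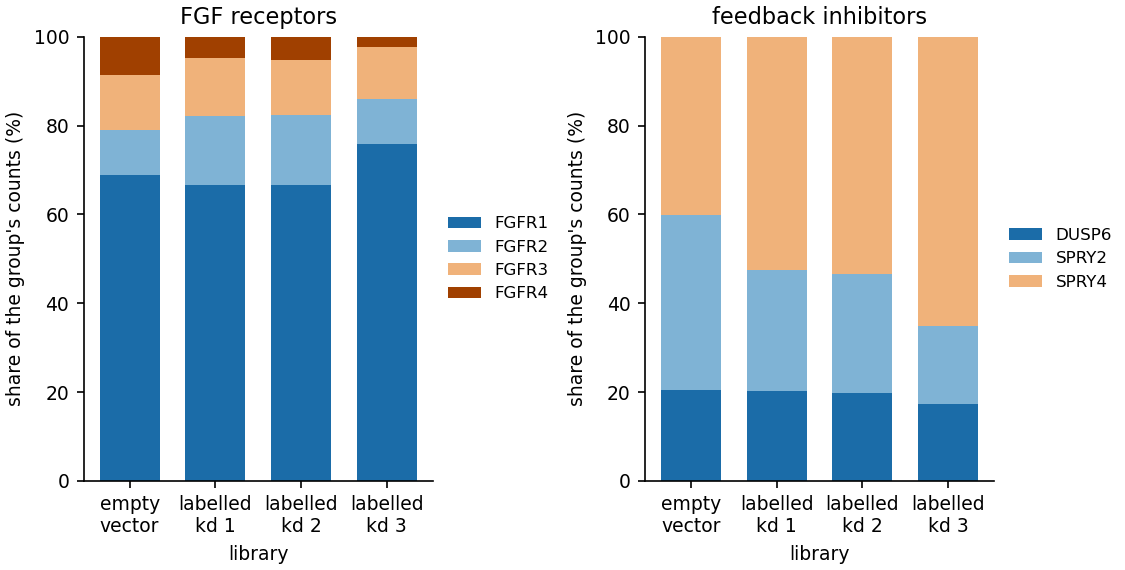
Share of the counts of the 4 FGF receptors (left) and of the 3 feedback inhibitors (right) in each library, stacked to 100%; counting intervals are given in the text for FGFR4 and SPRY4. The FGFR4 share was largest in the control, and the SPRY4 share was smallest there.

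The feedback inhibitors, which are commonly used as readouts of ERK activity, did not move as 1 group. DUSP6 (ENSG00000139318.8; chromosome 12, 89347232 to 89353271, minus strand) was at 38.7 CPM in the control and 47.0, 45.1 and 42.4 CPM in labelled replicates 1, 2 and 3. Its mean difference was the smallest among the tested members, with ratios of 1.22 (1.10 to 1.35), 1.17 (1.05 to 1.30) and 1.10, whose interval of 0.972 to 1.24 included 1. The mean log2 difference was 0.21 ± 0.08 (SD, n = 3), and 0.11 after trend removal, where replicate 3 was at -0.06. DUSP6 shares 1875 exonic bases with AC024909.2, an antisense gene, so its counts are uncertain if strand was not used. AC024909.2 had 3.25 CPM in the control and 1.91, 1.24 and 2.53 CPM in the replicates.

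SPRY4 (ENSG00000187678.10; chromosome 5, 142310427 to 142326455, minus strand), a Sprouty protein that restrains signalling from receptor to RAF, had a wider mean difference than DUSP6 and SPRY2. Its level was 76.3 CPM in the control and 122, 121 and 160 CPM in labelled replicates 1, 2 and 3. All 3 lay above the control, and here replicate 3 was the highest. The ratios were 1.61 (1.49 to 1.73), 1.59 (1.48 to 1.71) and 2.09 (1.94 to 2.26), and the mean log2 difference was 0.81 ± 0.23 (SD, n = 3). SPRY2 (ENSG00000136158.12; chromosome 13, 80335976 to 80340951, minus strand), a Sprouty protein of the same family, had 75.1 CPM against 64.1, 60.6 and 43.2 CPM. All 3 knockdown-labelled libraries lay below the control, with ratios of 0.855 (0.789 to 0.925), 0.807 (0.745 to 0.876) and 0.576 (0.521 to 0.637). Its mean log2 difference was -0.44 ± 0.31 (SD, n = 3). After trend removal the mean of SPRY2 was -0.29, with -0.08, -0.17 and -0.62 in replicates 1, 2 and 3. That of SPRY4 moved from 0.81 to 0.62.

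Within each library, SPRY4 counts were 1.02 times SPRY2 counts in the control (0.926 to 1.12), 1.91 times in replicate 1 (1.81 to 2.02), 2.00 times in replicate 2 (1.89 to 2.12) and 3.69 times in replicate 3 (3.39 to 4.03). The SPRY4 share of the 3 feedback genes' counts went from 40.1% (38.1% to 42.2%) in the control to 52.4%, 53.5% and 65.1%, and the SPRY2 share from 39.5% to 27.5%, 26.7% and 17.6%. DUSP6 held between 17.3% and 20.3% in all 4 libraries. These ratios and shares are likewise not corrected for length and GC trends that differ between libraries.

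Levels of different genes were compared per length, as CPM per kb of annotated exon. By the median over the 4 libraries the order was FGFR1 (34.3), FGF4 (33.0), FGF2 (25.0), SPRY2 (20.5), SPRY4 (18.6), FGFR3 (17.9), FGFR2 (12.1), DUSP6 (9.44), FGFR4 (7.32) and FGF8 (0.0952). The ranges of all neighbours in this order overlapped except those of FGFR4 and FGF8. FGF4 was above FGFR1 in replicates 1 and 2 and below it in the control and replicate 3. FGFR3 was above FGFR2 in all 4 libraries per kb of annotated exon, but per kb of longest transcript only in the control and replicate 3, with medians of 19.6 for FGFR3 and 20.9 for FGFR2. The annotated exons of FGFR1 add up to 13842 nt but its longest transcript has 6216 nt, and per kb of longest transcript its median was 76.4, from 61.4 to 87.7, above the whole range of each other member.

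**Figure D4:**
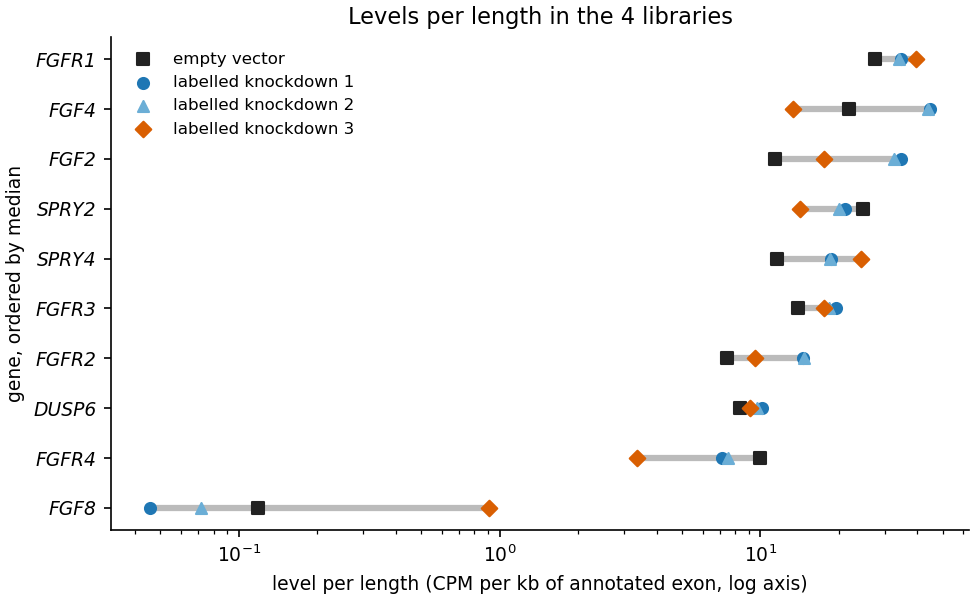
CPM per kb of annotated exon on a log axis for the 4 libraries, with genes ordered by their median; grey bars span the lowest to the highest library. The bars of all neighbouring genes overlap except those of FGFR4 and FGF8.

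The rest of the pathway was read through lists of its parts. Of 15 other secreted ligands, 3 were tested, and 1 was lower and 0 higher by the 2-fold rule. That gene was FGF23, a hormone of phosphate balance, with 3.33 CPM in the control and 0.560 ± 0.284 CPM (SD, n = 3) in the knockdown-labelled libraries, from 80 counts against 32, 18 and 27. The intracellular FGF homologous factors, which regulate sodium channels and are not ligands, gave 0 in either direction among 2 tested of 4. FGF12 was their most abundant gene, at 28.8 CPM in the control and 32.2 ± 6.69 CPM (SD, n = 3).

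Among 26 coreceptors, binding proteins and heparan sulfate genes, 22 were tested, with 1 higher and 0 lower by the 2-fold rule. FLRT3, a membrane protein that binds FGF receptors, had 216 counts in the control and 1513, 1226 and 1152 in labelled replicates 1, 2 and 3, which as CPM gave a mean log2 difference of 1.55 ± 0.43 (SD, n = 3). In this list 15 of 22 genes lay above the control in all 3 libraries and 2 lay below, with a median log2 difference of 0.44; the shares over all tested genes were 30.1% and 34.2%. Removal of the length and GC trends left 10 above and 4 below, with a median of 0.15; over all genes the shares were then 26.6% and 33.6%. SDC4, a heparan sulfate proteoglycan and the list's most abundant gene by CPM, had 284 CPM in the control and 269 ± 54.0 CPM (SD, n = 3).

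All 23 genes of the list for the path from receptor to ERK were tested, with 2 higher and 0 lower. The list also holds genes that restrain the signal, among them CBL, NF1 and RASA1, so its counts and median mix opposite roles. CBL, a ubiquitin ligase that downregulates receptors, went from 155 CPM to 434, 431 and 337 CPM. BRAF, a kinase above ERK, went from 37.6 CPM to 96.7, 94.0 and 83.6 CPM, and its processed pseudogene may share reads. After removal of the length and GC trends neither was 2-fold higher in each library: the mean log2 difference of CBL moved from 1.36 to 0.63 and that of BRAF from 1.28 to 0.65. The median of the list was 0.25, and 0.02 after trend removal. NRAS, the most abundant by CPM, had 494 CPM in the control and 405 ± 21.2 CPM (SD, n = 3).

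The 11 other feedback inhibitors gave 1 higher and 1 lower gene. SPRED3, a Sprouty-related inhibitor, rose from 3.25 CPM to 8.96, 7.45 and 8.61 CPM. DUSP9, an ERK phosphatase of the same subfamily as DUSP6, fell from 5.25 CPM to 1.83, 1.51 and 1.02 CPM. Both kept the 2-fold rule after trend removal. IL17RD, also called SEF, was the most abundant by CPM, with 256 CPM in the control and 260 ± 55.9 CPM (SD, n = 3). Of 18 ERK-responsive factors and targets, 16 were tested and 0 passed in either direction. Of these, 3 lay above the control in all 3 libraries and 7 below, and after trend removal 2 above and 4 below. Over all tested genes 30.1% lay above and 34.2% below, and 26.6% and 33.6% after trend removal. The median of the list was -0.21, and -0.00 after trend removal. CCND1, the cyclin of G1, was their most abundant gene, at 701 CPM in the control and 763 ± 4.28 CPM (SD, n = 3). ETV4 and ETV5 are ETS factors induced by FGF signalling. ETV4 had 225 CPM in the control and 252, 267 and 111 CPM in replicates 1, 2 and 3, above the control in replicates 1 and 2 and below it in replicate 3. ETV5 was lower in all 3, at 253, 267 and 234 CPM against 293 CPM.

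**Figure D5:**
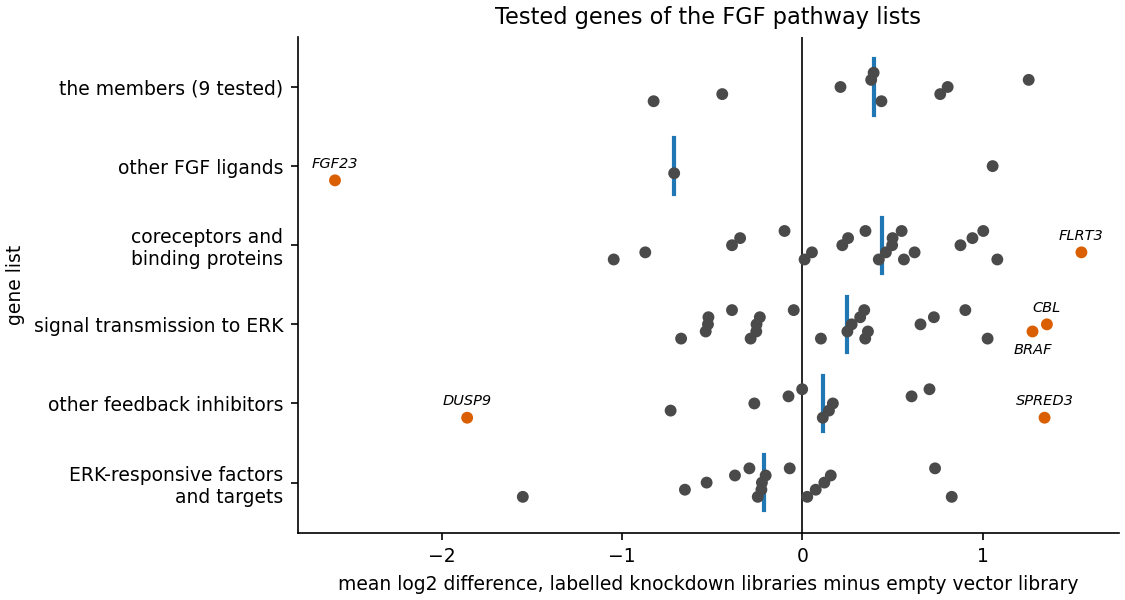
Mean log2 difference of each tested gene in 6 pathway lists, knockdown-labelled libraries minus control; blue bars are medians and orange points passed the 2-fold rule in each library. No point among the members is orange, and the orange points of the other lists are FGF23, FLRT3, CBL, BRAF, SPRED3 and DUSP9.

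Markers of other cell types also differed between the control and the other libraries. Neural markers summed to 206 CPM in the control and 327 to 382 CPM in the knockdown-labelled libraries. NES made 167 CPM of the control sum. The 2-fold rule was passed upward by 2 of 9 tested, against 3.65% of all tested genes. PAX6 had 0 counts in the control and 957, 784 and 92 in replicates 1, 2 and 3, and MAP2 had a mean log2 difference of 1.53 ± 0.32 (SD, n = 3). In all 3 libraries 5 of the 9 lay above the control and 1 below, against 30.1% and 34.2% of all tested genes. The 1 below was OLIG2, with log2 differences of -0.41, -0.19 and -1.64. ELAVL3 and ELAVL4 were above the control in replicates 1 and 2 and below it in replicate 3, at -0.77 and -2.70. Mesenchymal markers summed to 517 CPM against 442 to 706 CPM, with 2 of 9 tested higher, PDGFRB at 1.31 ± 0.18 and POSTN at 2.84 ± 1.54 (mean log2 difference, SD, n = 3). THY1 made 362 CPM of the control sum. Of these 9, 5 lay above the control in all 3 libraries and 0 below. COL3A1 was lower in replicates 1 and 2, with log2 differences of -2.38 and -2.73, and higher in replicate 3, at 0.61. THY1 and LUM were below the control in replicate 3 only, at -0.78 and -0.82. MAP2 and PDGFRB did not pass after the trend correction. The most abundant marker by CPM was LIN28A for embryonal carcinoma, NES for neural, THY1 for mesenchymal, GATA4 for endoderm, HAND1 for mesoderm and TFAP2C for trophoblast cells. Endoderm markers summed to 5.42 CPM against 10.6 to 19.9 CPM with 0 of 3 past the rule, and trophoblast markers to 109 CPM against 143 to 230 CPM with 0 of 3. Among mesoderm markers 1 of 4 tested was higher, HAND1, at 2.36 ± 0.65. DNMT3B, 1 of the 13 tested embryonal carcinoma markers, was lower by the rule, at 795 CPM against 347 ± 5.83 CPM (SD, n = 3). L1TD1 fell just short of it, with log2 differences of -0.97, -0.98 and -1.06. POU5F1 had -0.26, -0.15 and -1.14. In all, 6 of the 13 lay below the control in all 3 libraries and 2 above, PODXL and SALL4. The untested marker, ZFP42, had at most 0.167 CPM. The trophoblast marker CGB3 had 0 counts in all 4 libraries. The part of these cell states in the FGF results was not tested.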

How the data were processed

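RNA of 4 libraries was sequenced, and the authors deposited 1 table of raw gene counts per library, with Ensembl identifiers and symbols. The submitters' processing notes name STAR 2.7.11b, featureCounts 2.0.6, DESeq2 and the build GRCh38; the annotation release and strand setting are not given in the sources used here. Per the labels' protocols, libraries were ribosomal RNA-depleted and strand-specific. Per the file headers, count columns carry the names of a LacZ control and of numbered GKAP_KIF27 sets; each table was assigned by the series record and grouped by its title. Between 65.2% and 68.0% of nonzero counts were even.

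Counts were scaled to CPM with TMM factors of edgeR 4.0.16 (R 4.3.3), 0.953 in the control and 0.990, 0.969 and 1.09 in labelled replicates 1, 2 and 3; log2 CPM used a prior count of 2. edgeR's quasi-likelihood test used filterByExpr, both groups without covariates and Benjamini-Hochberg adjustment at 0.05; with a single control, the spread is that of the 3 others. Alternatives were RLE scaling, no filter, DESeq2 1.42.0, voom in limma 3.58.1, and those of the closing section. Coordinates and lengths came from GENCODE 29 (GRCh38), matched for 58269 of 62696 identifiers and all 10 members. Trends were removed by lowess with a span of 0.3. On counts halved for possible pairs, replicates 1 and 2 differed beyond sampling noise (chi-square per degree of freedom of 4.85), so both were kept. That excess does not show that they were separate cultures, and each SD with n = 3 includes this close pair. The tests were also run on simulated counts, once with the spread of the knockdown-labelled libraries and once with a low spread. The outcome is not given here, so it lends no weight to the calls above. The members, lists and alternatives were chosen with earlier results of these data known. All members are named, and of each list the genes that passed the 2-fold rule and the most abundant one; others were named after their values were seen.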

Additional observations from a re-analysis of the deposited data

How the results depend on the processing

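No paired analysis was possible because there is a single control library, which carries no replicate number. Over 109 alternative values of the members' mean log2 differences, 104 moved by less than 1 SD between replicates, 4 moved by more and 1 changed direction. Much of this tally was fixed in advance. The expression minimum cannot change a gene's own difference. Leaving out 1 of 3 replicates shifts a mean by less than 1 SD, apart from rescaling. The SD is each gene's own, so FGF4 counted as unmoved from 0.13 to 0.97 and DUSP6 as moved at 0.30. The change in direction was FGF8 without replicate 3, at -0.80 (-0.80 to 1.03 as each replicate was left out). Its 4 to 40 counts limit any statement on it. The count of members at least 2-fold higher in each library was 0 with every scaling, prior count, expression minimum and trend removal run. It was 2 under the 1.5-fold rule without trend removal, and 0 to 1 when a replicate was left out. With scaling recomputed without replicate 3, FGF2 was that 1 gene. The count at least 2-fold lower was 0 under all of these. The median of the members moved from 0.40 to 0.49 with total counts as scaling. Members higher in every knockdown-labelled library numbered 5 to 7 and lower ones 2 under the alternatives, which for these counts were chosen after seeing the data. edgeR's 0 calls became 17 to 11177 when a replicate was left out, the largest number without replicate 3, and 271 with DESeq2. With the longest transcript in place of annotated exons, 4 members changed place in the order per length.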

Other observations

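Of the 15 other FGF ligands, 12 were too low to be tested, and 4 of these had no count in the control. Counts below are raw, from libraries that differ in depth. FGF10, a ligand of mesenchyme in organ budding, had 0 counts there and 31, 35 and 14 in labelled replicates 1, 2 and 3. FGF17, a ligand of the FGF8 subfamily, had 0 counts against 20, 12 and 12. FGF21, a metabolic hormone, had 0 counts in the control and in replicate 3, and 103 and 60 in replicates 1 and 2. FGF22 had 0 counts against 18, 8 and 69. With a bound of 3 for a count of 0, doubled for possible pairs, a count of 0 in the control allows up to 6 counts. This bound is 1-sided, unlike the intervals given for the ratios. Another 3 had counts in the control and 0 in replicate 3: FGF3 had 2, 2, 5 and 0 counts in the control and replicates 1, 2 and 3, FGF16 had 8, 14, 20 and 0, and FGF20 had 4, 16, 26 and 0. The remaining 5, FGF5, FGF6, FGF7, FGF9 and FGF18, had counts in all 4 libraries.

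Across 11079 other protein-coding genes with a mean CPM of at least 5, the genes whose 3 log2 differences lay nearest to those of DUSP6 were MIB1, DPP8 and ZBTB17, at Euclidean distances of 0.0238, 0.0307 and 0.0311. MIB1, for example, had 80.9 CPM in the control and 98.1, 92.9 and 88.2 CPM in the replicates. Nearest to FGF4 were the carboxypeptidase M gene, ABITRAM and a gene named KCNJ5-AS1 in the files, at distances of 0.0233, 0.0726 and 0.0724. ABITRAM had 26.3 CPM in the control and 52.4, 53.3 and 16.8 CPM. These likenesses rest on 4 libraries, of which replicates 1 and 2 are nearly the same, and are descriptions only.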
